A study of Homo sapiens with 6 samples.

Results

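Protocadherins, the largest group of the cadherin superfamily, were examined in PC3, a human prostate cancer line that grows without androgen, after ectopic expression of miR-34c. Members were all genes whose symbol starts with PCDH and whose probe set on the array is paired with a single gene symbol. These were 29 of the 18376 genes measured, 18 of the beta cluster and 11 unclustered, and each had 1 probe set. No alpha or gamma gene met the rule, and probe sets paired with several protocadherins at once were not used for any gene. The gene symbol alone decided membership, but the family itself was chosen by its log2 changes in this same contrast, with PCDHB14 and PCDHB10 in front. Its counts, changes and p-values are therefore a description of these genes in the fit over all genes and no independent evidence about the family.

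Total RNA was measured on 6 whole-transcript arrays, 3 from cells with ectopic miR-34c, a microRNA of the p53-induced miR-34 family, and 3 from cells with a scramble mimic as the control. Both groups are the same line, and nothing else about the treatment (dose, time, separate cultures) is given in the labels, so p-values here reflect how far the arrays of a group scatter, which may be technical. The labels and the series title name miR-34c, whereas the design text names miR-205, and the groups are called here as the labels call them. The deposited values are log2 values relative to an undescribed reference for each probe set, so a value of 0 says nothing about abundance and no level can be compared between genes, and only differences between the groups were read. In bulk RNA, fewer cells that use a gene and less of its RNA per cell cannot be told apart.

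Protocadherins are single-pass membrane proteins with extracellular cadherin repeats that bind the same protein on a neighbouring cell, and they are best known from neurons, where the clustered genes give each cell a surface identity. The clustered genes stand in tandem on chromosome 5 as the alpha, beta and gamma clusters. Each alpha or gamma gene has its own first exon, which is spliced to constant exons shared by its cluster, whereas a beta gene is a single exon with a promoter of its own. The unclustered genes lie outside the clusters, mostly on other chromosomes, and include the delta protocadherins, which take part in axon outgrowth, synapse change and cell sorting.

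Most genes of the beta cluster were lower with miR-34c, whereas the unclustered genes had a median change close to that of all genes. Of the 18 beta genes 10 fell, none rose and 8 did not pass (limma, Benjamini-Hochberg adjusted p under 0.05). Among all genes tested 15.7% passed in either direction, 8.01% as falls. The 10 falls were PCDHB14, PCDHB10, PCDHB12, PCDHB13, PCDHB3, PCDHB4, PCDHB8, PCDHB9, PCDHB16 and PCDHB6. Of the 11 unclustered genes PCDH10 rose and 10 did not pass, beside 7.67% of all genes that rose. The median log2 change was -0.43 over the beta genes, -0.04 over the unclustered genes and -0.03 over all genes tested. The 2 medians of protocadherins stand side by side as a description, because genes are not replicates and the difference between the sets was not tested.

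PCDHB14 had the largest fall of the family. Its values were -0.64, -0.38 and -0.47 on the miR-34c arrays 1 to 3 and 0.69, 0.54 and 0.38 on the scramble arrays 1 to 3. Every miR-34c value lay below every scramble value, and the closest pair was -0.38 and 0.38. Such equal distances from 0 also occurred in many other members. Among them were PCDHB10 (-0.25 and 0.25), PCDHB12 (-0.28 and 0.28), PCDHB13 (-0.32 and 0.32) and the unclustered PCDH18 (-0.0013 and 0.0013). They are therefore not read as a property of PCDHB14. The log2 change was -1.03 ± 0.10 (SE, n = 3 per group), which is 0.489 of the scramble level (limma adjusted p = 0.000222).

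PCDHB10, its neighbour a few genes away in the cluster, fell as far but with a wider spread. The miR-34c arrays held -0.61, -0.46 and -0.25 and the scramble arrays 0.59, 0.86 and 0.25. Scramble array 2 was the highest array and miR-34c array 1 the lowest, and the groups did not overlap. The log2 change was -1.01 ± 0.15 (SE, n = 3 per group), to 0.498 of the scramble level (limma adjusted p = 0.00205).

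PCDHB12 and PCDHB13 lie between these 2 genes in the cluster and fell nearly as much. For PCDHB12 the values were -0.51, -0.28 and -0.49 with miR-34c and 0.28, 0.55 and 0.47 with scramble (log2 change -0.86 ± 0.10, SE, n = 3 per group, limma adjusted p = 0.000553). For PCDHB13 they were -0.32, -0.32 and -0.70 with miR-34c and 0.35, 0.52 and 0.32 with scramble (log2 change -0.84 ± 0.11, SE, n = 3 per group, limma adjusted p = 0.00125). Neither gene had overlapping groups, and they fell to 0.552 and 0.558 of the scramble level.

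PCDHB3 and PCDHB4, adjacent near the other end of the cluster, fell to 0.592 and 0.597 of the scramble level. PCDHB3 stood at -0.21, -0.18 and -0.42 with miR-34c and at 0.18, 0.65 and 0.63 with scramble (limma adjusted p = 0.00456). PCDHB4 stood at 0.47, -0.12 and -0.09 with miR-34c and at 0.93, 0.86 and 0.71 with scramble (limma adjusted p = 0.011). In PCDHB4 miR-34c array 1 lay well above the other two, and without miR-34c array 2 the gene did not pass (log2 change -0.64, adjusted p = 0.0542).

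PCDHB8 had the widest spread of the genes that fell. Its miR-34c values were -0.99, -0.15 and -0.23 and its scramble values 0.15, 0.52 and 0.15, so that miR-34c array 1 set much of the mean. The log2 change was -0.73 ± 0.20 (SE, n = 3 per group, limma adjusted p = 0.036), and -0.46 without that array, where it still passed (adjusted p = 0.0383). It did not pass without scramble array 1 (adjusted p = 0.0669), scramble array 2 (0.127) or scramble array 3 (0.0751), nor with array weights (0.0628). PCDHB9 was the opposite case, with a small and even fall. Its miR-34c values were -0.21, -0.20 and -0.21 and its scramble values 0.34, 0.23 and 0.20 (log2 change -0.47 ± 0.08, SE, n = 3 per group, limma adjusted p = 0.00351).

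PCDHB16 and PCDHB6 passed narrowly. PCDHB16 was at -0.02, -0.31 and -0.33 with miR-34c and at 0.02, 0.22 and 0.34 with scramble (log2 change -0.42, limma adjusted p = 0.0319). PCDHB6 lay between -0.00036 and 0.07 with miR-34c and between 0.27 and 0.37 with scramble (log2 change -0.28, limma adjusted p = 0.0453). PCDHB6 passed in 4 of 14 alternative settings and PCDHB16 in 9, and neither passed with the replicate number as a block, where the adjusted p was 0.075 and 0.0607. PCDHB6 did not pass when any 1 array was left out (adjusted p between 0.0527 and 0.165). PCDHB16 did not pass without miR-34c array 2 (0.122), miR-34c array 3 (0.119), scramble array 2 (0.0799) or scramble array 3 (0.0962).

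**Figure D1:**
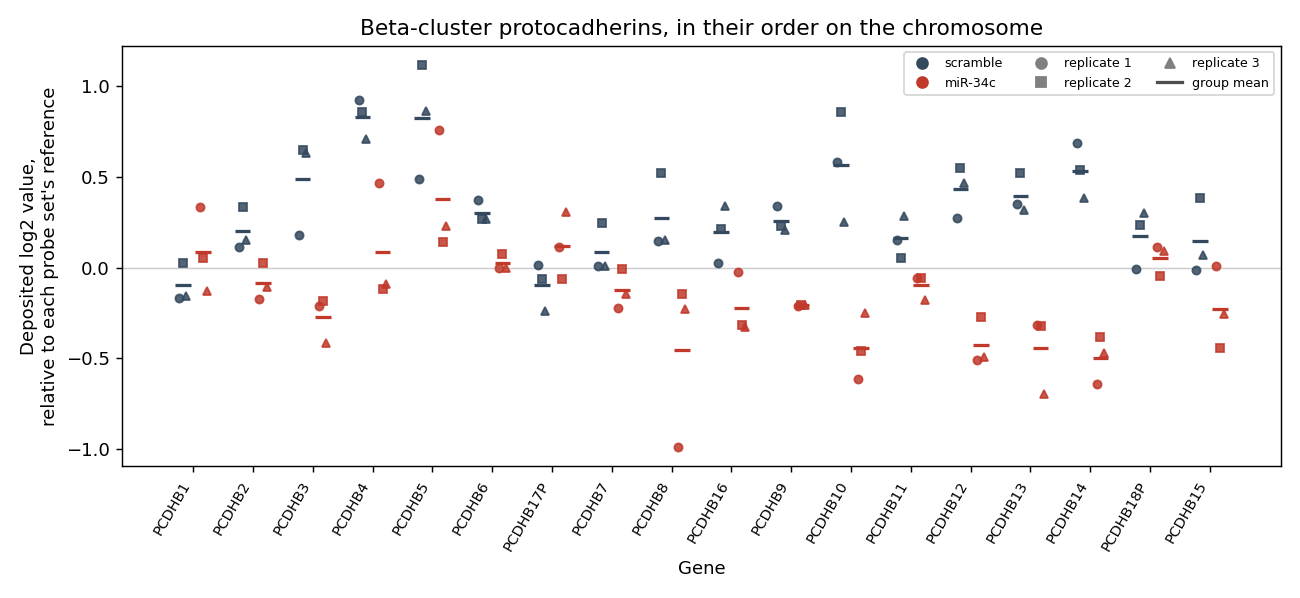
Deposited log2 value of each of the 18 beta-cluster genes (vertical axis, relative to each probe set's own reference) in their order on the chromosome, with scramble arrays in dark blue, miR-34c arrays in red, marker shapes for the replicate number and bars for the group means. In 13 genes all red points lie below all blue points, and in PCDHB1 and PCDHB17P the red mean lies above the blue one. Heights of different genes cannot be compared.

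The other beta genes did not pass but mostly had lower means with miR-34c. PCDHB5 ran from 0.14 to 0.76 with miR-34c and from 0.49 to 1.12 with scramble, and PCDHB15 from -0.44 to 0.01 and from -0.01 to 0.38, so the groups overlapped in both. The log2 changes were -0.45 (adjusted p = 0.159) and -0.38 (0.0901), and both genes passed without miR-34c array 1 (limma adjusted p = 0.0289 and 0.0285). In PCDHB2, PCDHB11 and PCDHB7 the groups did not overlap although none of them passed, with log2 changes of -0.28, -0.26 and -0.21 and adjusted p-values of 0.0679, 0.0745 and 0.172. PCDHB11 passed with array weights (adjusted p = 0.0373) and without scramble array 2 (0.0468).

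The exceptions to the lower means were PCDHB1 and the pseudogene PCDHB17P. PCDHB1, the first gene of the cluster, held 0.33, 0.05 and -0.13 with miR-34c and -0.17, 0.03 and -0.15 with scramble (log2 change 0.18, 95% interval -0.08 to 0.45, adjusted p = 0.343). PCDHB17P held 0.12, -0.06 and 0.31 with miR-34c and 0.01, -0.06 and -0.24 with scramble (log2 change 0.22, adjusted p = 0.223). The other pseudogene, PCDHB18P, had a log2 change of -0.12 (adjusted p = 0.477), and the groups of all 3 overlapped.

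Taking the beta genes together, 16 of 18 (88.9%) had a lower mean with miR-34c, beside 57.7% of all genes. The miR-34c arrays lay wholly below the scramble arrays in 13 of 18, beside 18.9% of all genes. A fall of at least 1.5-fold was called in 7 of 18, beside 1.47% of all genes. The number below 0 was 16 in each of the 14 alternative settings, and the number that fell lay between 7 and 11. Without miR-34c array 2, 7 fell and the median was -0.35, and without scramble array 3 also 7 fell.

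The mean over the 18 beta genes was -0.12, -0.15 and -0.19 on miR-34c arrays 1 to 3 and 0.25, 0.42 and 0.28 on scramble arrays 1 to 3. All 3 miR-34c arrays were thus below all 3 scramble arrays, with the scramble group more spread out. Scramble array 2 held the highest of the 6 values in 9 of the 18 genes, and this array also had the highest median over all probe sets (0.0615, the others between -0.0303 and -0.000421). With each array centred on its median 9 beta genes fell and the median change was -0.40. Beta genes are alike in sequence, and how far their probe sets keep the genes apart was not tested.

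In the order of the cluster, genes that fell and genes that did not pass were interspersed. PCDHB3 and PCDHB4 fell side by side, PCDHB6 fell between PCDHB5 and PCDHB17P, which did not pass, and PCDHB11, which did not pass, lies between PCDHB10 and PCDHB12, which fell. PCDHB1 at one end and PCDHB15 at the other did not pass. Whether position bears on the change was not tested.

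Promoters of the beta genes were compared because each beta gene starts from its own. Promoters of most clustered protocadherins are known for a conserved element around the letters CGCT, which the insulator protein CTCF can bind. RefSeq promoter windows of GRCh38.p14, from 250 bases before to 50 after the start, were at hand for 14 of the 18 beta genes. Strings of 6 to 14 bases were searched after the values were known, and shorter ones were not. The longest of these held by the largest number of windows was GGTGGCGCT, present on the gene's own strand in 13 of 14. Over the whole table, these beta promoters included, it stood on the own strand in 106 of the 35116 promoters. Outside the clusters it did so in 93 of 35064. On either strand (GGTGGCGCT or AGCGCCACC) it stood in 0.501% of the 35116 promoters, and in 0 of 13 alpha and 0 of 20 gamma genes with a window. It stood in 0 of the 9 measured unclustered genes with a window, which do not include PCDH10 or PCDH20. A match is a description of letters, not a shown binding site. The stretches below carry the string in capitals, 5′ to 3′ on the plus strand of chromosome 5, for genes that fell and for PCDHB7 and PCDHB15, which did not pass.
PCDHB14: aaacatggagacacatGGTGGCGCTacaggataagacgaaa
PCDHB10: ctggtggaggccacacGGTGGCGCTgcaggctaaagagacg
PCDHB12: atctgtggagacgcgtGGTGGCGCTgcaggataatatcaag
PCDHB13: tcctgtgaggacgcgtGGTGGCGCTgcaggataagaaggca
PCDHB3: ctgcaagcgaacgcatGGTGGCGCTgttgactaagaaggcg
PCDHB4: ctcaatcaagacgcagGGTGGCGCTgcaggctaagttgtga
PCDHB9: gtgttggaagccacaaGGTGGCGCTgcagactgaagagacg
PCDHB7: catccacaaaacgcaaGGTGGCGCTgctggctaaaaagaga
PCDHB15: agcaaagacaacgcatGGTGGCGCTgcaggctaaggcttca
PCDHB1: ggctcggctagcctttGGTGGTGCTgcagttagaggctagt

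The stretch of PCDHB14 is chr5:141223258-141223298, that of PCDHB10 chr5:141192294-141192334 and that of PCDHB1 chr5:141051332-141051372, all GRCh38.p14. PCDHB1 does not hold the string, and its closest stretch differs from it by 1 substitution, C6T, counted from 1 at the 5′ end of the string, where the capitals mark that closest stretch. Relative to the start, the first base of the string lay between -84 and -2 in the 13 genes, at -69 in PCDHB14 and at -43 in PCDHB10. Of the 13 genes with the string 9 fell and 4 did not pass, beside 10 falls among all 18 beta genes and 8.01% of all genes. Their log2 changes ran from -1.03 to -0.21, and PCDHB1 had 0.18. PCDHB6, which fell, and PCDHB11, PCDHB17P and PCDHB18P, which did not pass, had no window. One gene with a window but without the string gives no test of the string.

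**Figure D2:**
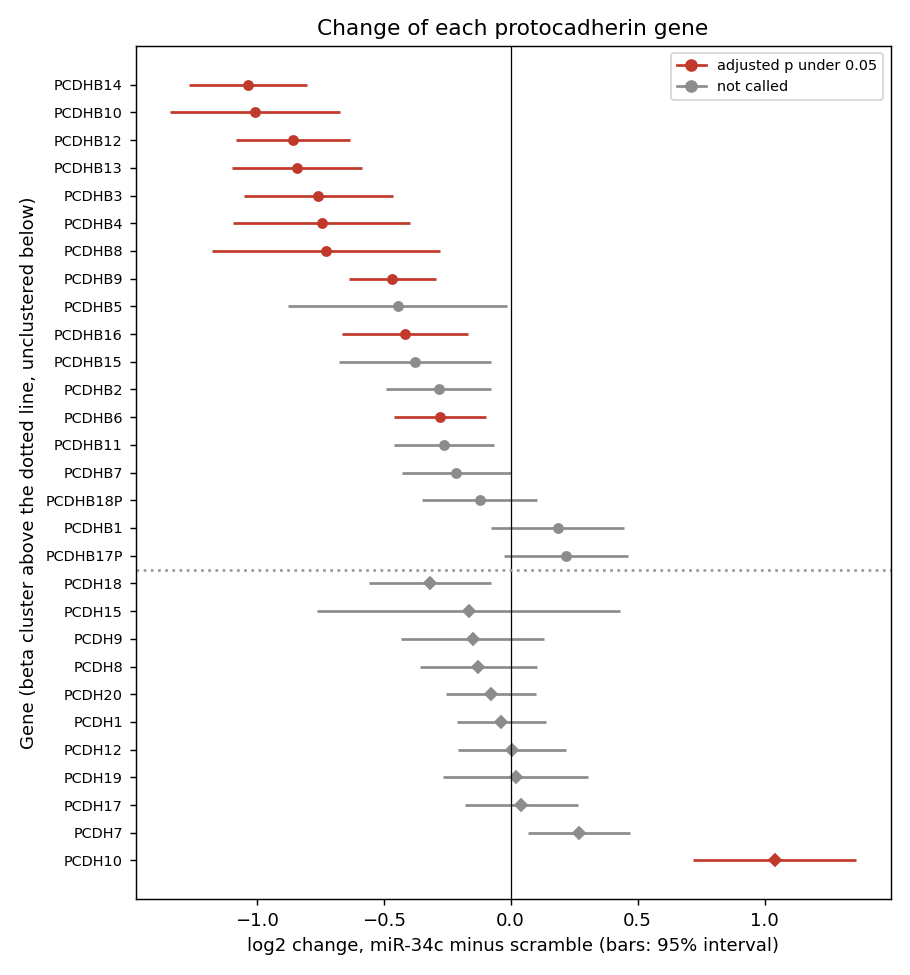
log2 change (miR-34c minus scramble, horizontal axis) of the 29 protocadherin genes with its 95% interval from limma, beta genes as circles above the dotted line and unclustered genes as diamonds below it, in red where the adjusted p was under 0.05. The beta genes run from -1.03 to 0.22 with 10 falls, and the unclustered genes from -0.32 to 1.04 with PCDH10 as the rise.

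PCDH10 was the unclustered gene that changed, and it rose. PCDH10 is a delta protocadherin whose promoter is often methylated in tumours. Its values were 1.38, 1.53 and 1.59 on the miR-34c arrays 1 to 3 and 0.68, 0.48 and 0.21 on the scramble arrays 1 to 3. The miR-34c arrays lay close together and far above the scramble arrays. The log2 change was 1.04 ± 0.14 (SE, n = 3 per group), 2.06-fold higher (limma adjusted p = 0.00137), and the gene passed in all 14 alternative settings (adjusted p between 0.000634 and 0.00914). It changed about as much as PCDHB14 and PCDHB10 did, in the other direction.

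PCDH7 and PCDH18 had separate groups but did not pass. Of the 11 unclustered genes, PCDH10 and PCDH7 had all miR-34c arrays above all scramble arrays, 2 of 11 beside 15.3% of all genes. PCDH18 had all miR-34c arrays below all scramble arrays, 1 of 11 beside 18.9% of all genes. PCDH7, a delta protocadherin that binds the phosphatase PP1 alpha, held 0.01, 0.24 and 0.09 with miR-34c and -0.24, -0.05 and -0.18 with scramble (log2 change 0.27, 95% interval 0.07 to 0.47, adjusted p = 0.0744). It did pass after each array was centred on its median (0.0342, adjusted), after a further quantile normalization (0.0296) and when arrays were weighted (0.0294). PCDH18 ran from -0.42 to -0.0013 with miR-34c and from 0.0013 to 0.11 with scramble (log2 change -0.32, adjusted p = 0.0773), and it passed without miR-34c array 2 (log2 change -0.44, adjusted p = 0.0197).

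The remaining unclustered genes had overlapping groups and did not pass. PCDH15, a part of the tip links of inner-ear hair cells, had the widest spread of the family, from -0.07 to 1.12 with miR-34c and from 0.34 to 0.87 with scramble (log2 change -0.17, 95% interval -0.76 to 0.43). PCDH9 and PCDH8, the latter a synaptic protein induced by activity, had log2 changes of -0.15 (95% interval -0.43 to 0.13) and -0.13 (-0.36 to 0.10). PCDH20 and PCDH1, the latter an epithelial protocadherin of the airway, had -0.08 (-0.25 to 0.10) and -0.04 (-0.21 to 0.14). The changes of PCDH12, an endothelial protocadherin, PCDH19, mutated in an epilepsy, and PCDH17 lay between 0.0043 and 0.04, and the widest of their 95% intervals, that of PCDH19, ran from -0.27 to 0.31. Falls as large as those of PCDHB14 or PCDHB10 lie outside the intervals of these 8 genes, while falls as small as that of PCDHB6 lie inside those of PCDH15, PCDH9 and PCDH8.

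**Figure D3:**
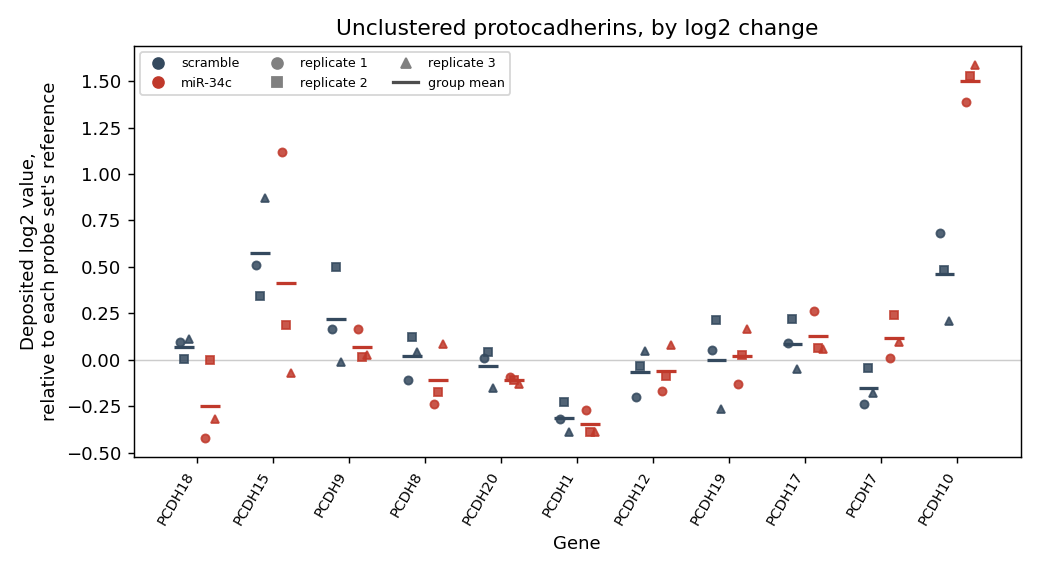
Deposited log2 value of each of the 11 unclustered protocadherins (vertical axis, relative to each probe set's own reference), ordered by log2 change, with scramble arrays in dark blue, miR-34c arrays in red, marker shapes for the replicate number and bars for the group means. PCDH10 at the right has its miR-34c arrays between 1.38 and 1.59 and its scramble arrays between 0.21 and 0.68, and in 8 genes the groups overlap.

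**Figure D4:**
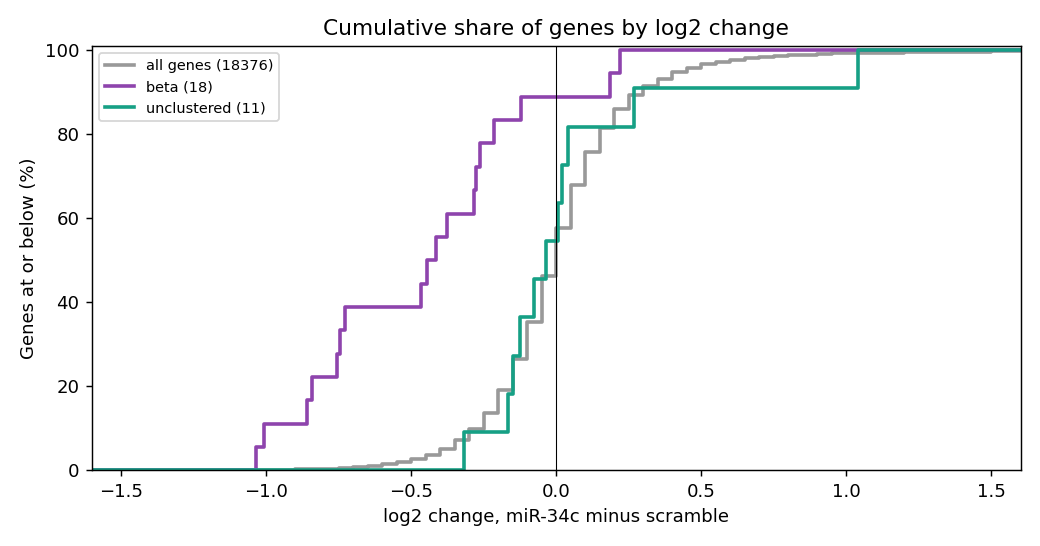
Share of genes (vertical axis, percent) at or below each log2 change (miR-34c minus scramble, horizontal axis) for the 18 beta genes in purple, the 11 unclustered genes in green and all 18376 genes tested in grey, over the range from -1.6 to 1.6. The beta curve lies to the left of the other curves over nearly its whole length, with its median at -0.43.

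Genes that flank the clusters or lie between them were set beside the members. Of 12 such genes ARAP3, a GTPase-activating protein at the far side, fell (log2 change -0.30, limma adjusted p = 0.0398), none rose and 11 did not pass, beside 15.7% of all genes called. At an unadjusted p under 0.05 there were 4 of the 12, beside 29.2% of all genes. After a further quantile normalization 2 rose. The fall of ARAP3 was lost when the replicate number was a block, and also without array 2 or 3 of miR-34c or array 1 or 2 of scramble. TAF7, a subunit of the general transcription factor TFIID that lies between the beta and gamma clusters, had a log2 change of 0.19 (adjusted p = 0.143), and RELL2 0.26 (0.121). The median of these genes was 0.0074.

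Of 20 chromatin proteins known from the control of the clusters 4 fell, 2 rose and 14 did not pass (median log2 change -0.15). Among all genes 8.01% fell and 7.67% rose. In limma 10 of the 20 had an unadjusted p under 0.05, beside 29.2% of all genes. SMCHD1, a silencing protein that acts at the clusters and on the inactive X chromosome, rose by 0.52 ± 0.08 (SE, n = 3 per group, limma adjusted p = 0.00313). PDS5A and PDS5B, which regulate cohesin on DNA, fell by 0.40 and 0.36 on the log2 scale (limma adjusted p = 0.0177 and 0.0223). CTCF had a log2 change of -0.22 (adjusted p = 0.121) and the cohesin subunit RAD21 -0.29 (0.0669), and neither passed. The number that fell was 2 without miR-34c array 1 or scramble array 2 and 0 without miR-34c array 2 or miR-34c array 3. The number that rose was 1 without each miR-34c array, without scramble array 1 and with the replicate number as a block.

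Among 19 measured partners and processing enzymes of protocadherins 2 rose and 3 fell, beside 7.67% and 8.01% of all genes. An unadjusted p under 0.05 in limma was found for 7 of the 19, beside 29.2% of all genes. The gamma-secretase complex, which cuts the membrane stub left after shedding, went both ways: PSENEN rose by 0.63 and NCSTN by 0.48, whereas PSEN2 had a log2 change of -0.44 (limma adjusted p = 0.00101, 0.00452 and 0.00393). The other falls were APH1A, also of gamma-secretase, and ADAM10, the sheddase (log2 changes -0.39 and -0.30). The median of the list was -0.04, and no subunit of the WAVE complex or focal adhesion kinase gene passed.

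Among 38 measured genes of the rest of the cadherin superfamily 2 rose, 3 fell and 33 did not pass (median log2 change -0.06). The share called was near the 15.7% of all genes. Of the 38, 9 had an unadjusted p under 0.05 in limma, beside 29.2% of all genes. CDH3, P-cadherin, was 2.12-fold higher (log2 change 1.09 ± 0.13, SE, n = 3 per group, limma adjusted p = 0.000553), and CDH1, E-cadherin, rose by 0.40. CDH6 and CDH11, type II cadherins, fell by 0.73 and 0.39 on the log2 scale (limma adjusted p = 0.0015 and 0.007), and CDHR3 fell by 0.43. Leaving out array 1 or 3 of either group left 1 rise, and the number that fell was 5 with a robust prior and with array weights.

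Markers of other cells were looked at beside these changes. Of 11 neuronal markers MAP2 rose (log2 change 1.01) and none fell (2 fell with a robust prior, 1 with array weights and 1 without scramble array 3), of 4 neuroendocrine markers ENO2 rose (0.71), and of 4 endothelial markers PECAM1 fell (-1.17). No fibroblast marker of 6 and no leukocyte marker of 5 passed in limma, with 1 and 0 at an unadjusted p under 0.05, beside 15.7% of all genes called and 29.2% at that unadjusted p. Of 5 epithelial markers of the line 2 rose, CDH1 and KRT8, beside 7.67% of all genes. In limma 4 of the 5 had an unadjusted p under 0.05. The number that rose was 0 without miR-34c array 3 or scramble array 3 and 1 without any other array. It was 3 with each array centred on its median or with probe sets averaged, and 4 after a further quantile normalization. The levels of these markers are unknown on this scale, so they cannot show which cells were present, and their part in the protocadherin results was not tested.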

How the data were processed

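Per the submitters' processing notes the authors processed the arrays by RMA in Affymetrix Expression Console, and the deposited values are taken as log2 because RMA gives log2. They lie around 0, from -2.86 to 3.77, so each probe set had a reference value taken off it, by a step the sources do not describe. Of 28868 probe sets, 19309 are paired with 1 symbol in GEO's platform annotation. For genes with several probe sets the one with the highest mean was used, although on this scale a mean does not rank abundance. With the probe sets averaged instead, 2918 genes passed, beside 2881. Every protocadherin had 1 probe set. No build of the array design is stated there.

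The groups were compared with limma (version 3.58.1, R 4.3.3) over 18376 genes, with Benjamini-Hochberg adjustment at 0.05. The lmFit model held the group alone and was followed by eBayes with a variance trend. The trend uses the means of these relative values, which are no measure of abundance, and without it 2867 genes passed. The fit was tested on simulated data. All protocadherins were described, and of each related list the 3 genes with the smallest adjusted p. CTCF, RAD21, APH1A, ADAM10, CDH1, CDHR3 and the markers were named besides, some after their values were seen. The members and lists were chosen with earlier results of these data known. Of the listed related genes and markers 8 had no single-symbol probe set. Promoters were read from RefSeq windows of GRCh38.p14. Alternatives were the replicate number as a block, other variance priors, centring or quantile normalization again, array weights, other treatments of probe sets and leaving out each array. The number of arrays limits the precision.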

Additional observations from a re-analysis of the deposited data

How the results depend on the processing

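Of 406 values of single protocadherins under 14 alternatives, 370 kept their direction and their side of the threshold. PCDHB14, PCDHB10, PCDHB12, PCDHB13, PCDHB3, PCDHB9 and PCDH10 passed in all 14. The count of protocadherins called, 11, ran from 8 to 12 when 1 array was left out, and that of beta genes, 10, from 7 to 11. The beta median, -0.43, ran from -0.48 to -0.35 (-0.354 without miR-34c array 2), and the unclustered count, 1, from 1 to 2. The unclustered count was 2 with each array centred on its median, after a further quantile normalization and when arrays were weighted. When 1 array was left out, the count over the 4 related lists, 17, ran from 8 to 15, and that over all genes, 2881, from 1655 to 2652. In the settings that kept all arrays, the counts ran from 14 (replicate block) to 21 (array weights) and from 2675 (replicate block) to 3517 (array weights). Signs turned when 1 array was left out in 5 genes that did not pass: PCDH17 ranged from -0.0257 to 0.108, PCDH12 from -0.0653 to 0.0593, PCDH15 from -0.52 to 0.0764, PCDH19 from -0.114 to 0.128 and PCDH1 from -0.077 to 0.0063. The cause was not tested. The arrays share only a number: deviations from the group means correlated by -0.0051, 0.12 and -0.085 between same-numbered arrays, and with the replicate block 9 protocadherins were called, 8 of them beta genes.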

Other observations

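A probe set that the annotation pairs with 15 alpha-cluster genes together, and so with no single gene, held -0.26, -0.13 and -0.20 on the miR-34c arrays 1 to 3 and -0.04, 0.01 and -0.17 on the scramble arrays 1 to 3. The groups overlapped, and the difference of the means was -0.13.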
